A study of Mus musculus with 9 samples.

Results

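The Toll-like receptors of microglia from wild-type mice and from 2 Alzheimer model genotypes are described here, as the 10 genes Tlr1, Tlr2, Tlr3, Tlr4, Tlr5, Tlr6, Tlr7, Tlr8, Tlr9 and Tlr13. They were chosen by gene symbol among the 18571 genes of the deposited expression table, and all 10 were found and passed the filter on low counts that left 14696 genes. Per the labels the cells came from cortex and hippocampus of 9-month-old mice on a C57BL/6J background, with 3 libraries for each of 3 groups. The WT group is labelled wild type. The APP/PS1 group carries the amyloid-forming APP/PS1 transgenes. The third group, called cKO here and Cx43 cKO in the plots, is labelled APP/PS1:Cx3cr1-CreER:Cx43-flox/flox. It combines the same transgenes with floxed Cx43, the gap junction protein encoded by Gja1, and with a tamoxifen-activated Cre recombinase expressed from Cx3cr1, a gene of microglia and other mononuclear phagocytes. Tamoxifen by gavage (0.1 mg/g for 5 days at 8 months of age) is given in the labels of all 9 libraries. The labels of the WT and APP/PS1 groups name neither Cre nor floxed alleles, so the effects of these alleles and of the loss of Cx43 cannot be told apart. The brains were perfused and freed of meninges, and the cells were captured on plates with an antibody to CD45, a surface protein shared by nearly all leukocytes. The design text asks what Cx43 in microglia does in this disease.

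Toll-like receptors are membrane proteins that recognise microbial molecules and some molecules of damaged cells. Those at the cell surface bind lipids and proteins: TLR2 pairs with TLR1 or TLR6 on lipopeptides, TLR4 binds lipopolysaccharide with MD-2, and TLR5 binds flagellin. Those in endosomes bind nucleic acids: TLR3 double-stranded RNA, TLR7 and TLR8 single-stranded RNA and its breakdown products, TLR9 DNA with unmethylated CpG, and mouse TLR13 a sequence of bacterial ribosomal RNA. All except TLR3 signal through the adaptor MyD88, TLR3 and endocytosed TLR4 use TRIF, and both routes end in NF-kB and interferon regulatory factors. In the brain, microglia are the main cells that express the family, and TLR2 and TLR4 with their co-receptor CD14 are among the proteins known to bind amyloid-beta.

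The coordinates of the 10 genes are those of the RefSeq table of GRCm38.p6, the build named in the submitters' processing notes. The endosomal receptor genes Tlr7 (X:167303380-167330574), Tlr8 (X:167241123-167264329) and Tlr13 (X:106143275-106160493) are on the X chromosome, with Tlr7 and Tlr8 next to each other on the minus strand. Tlr1 (5:64924680-64933600) and Tlr6 (5:64953092-64970942) also lie side by side on the minus strand. The remaining members are Tlr2 (3:83836272-83841824), Tlr4 (4:66827551-66846581), Tlr5 (1:182954752-182976044), Tlr3 (8:45395665-45411075) and Tlr9 (9:106222598-106226876). The coding sequences of Tlr1, Tlr2, Tlr5 and Tlr6 each lie in 1 exon, those of Tlr7, Tlr8, Tlr9 and Tlr13 in 2 exons, that of Tlr4 in 3 and that of Tlr3 in 4.

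Tlr1 and Tlr6 are shown first because reads of 50 bases cannot always tell them apart. Of the 2976 stretches of 50 bases in the Tlr1 transcript, 454 (15.3%) also occur in the Tlr6 transcript, and 456 of 3628 (12.6%) in Tlr6 occur in another transcript. How reads with several matches were shared out is not given in the sources used here, so the split of counts between Tlr1 and Tlr6 is uncertain. The longest identical run, 229 bases of coding sequence, is printed with 20 bases on either side, each in its own 5′ to 3′ direction; the capitals mark the 2 bases that differ. The Tlr1 stretch lies at chr5:64925517-64925785 and the Tlr6 stretch at chr5:64953808-64954076, both on the minus strand of GRCm38.
Tlr1: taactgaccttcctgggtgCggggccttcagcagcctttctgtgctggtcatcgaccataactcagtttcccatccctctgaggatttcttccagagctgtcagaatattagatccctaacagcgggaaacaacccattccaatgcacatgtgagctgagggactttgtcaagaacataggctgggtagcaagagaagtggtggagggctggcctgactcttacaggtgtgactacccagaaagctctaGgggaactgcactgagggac
Tlr6: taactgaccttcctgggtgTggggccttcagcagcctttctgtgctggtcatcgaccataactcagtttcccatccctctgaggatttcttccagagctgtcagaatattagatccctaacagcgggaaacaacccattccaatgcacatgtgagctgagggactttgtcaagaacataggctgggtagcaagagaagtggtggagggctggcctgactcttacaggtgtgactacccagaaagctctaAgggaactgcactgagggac
In Tlr3, 68 stretches (1.56%) are shared with the antisense transcript Gm45542 that lies over its exons, and the sources used here do not say whether counting used the strand. No stretch of 50 bases of the other 7 members recurred in another transcript.

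The promoters of 4 members are printed because Tlr2 and Tlr13 were higher and Tlr5 and Tlr9 were lower in both Alzheimer model groups than in WT, as described below; they were picked with those values known. RefSeq (GRCm38.p6) start sites were matched for 8 of the 10 members, all but Tlr4 and Tlr7. Each stretch runs from 250 bases before the start site to the first 30 bases of the transcript, and capitals mark the motif matches found on either strand. The Tlr2 stretch is chr3:83841579-83841858 (minus strand), the Tlr5 stretch chr1:182954538-182954817 (plus strand), the Tlr9 stretch chr9:106222348-106222627 (plus strand) and the Tlr13 stretch chrX:106143025-106143304 (plus strand).
Tlr2: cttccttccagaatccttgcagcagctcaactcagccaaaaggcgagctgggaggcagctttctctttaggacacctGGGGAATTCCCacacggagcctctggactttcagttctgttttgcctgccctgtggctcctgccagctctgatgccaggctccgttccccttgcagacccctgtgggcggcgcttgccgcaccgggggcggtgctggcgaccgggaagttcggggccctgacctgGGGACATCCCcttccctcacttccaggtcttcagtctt
Tlr5: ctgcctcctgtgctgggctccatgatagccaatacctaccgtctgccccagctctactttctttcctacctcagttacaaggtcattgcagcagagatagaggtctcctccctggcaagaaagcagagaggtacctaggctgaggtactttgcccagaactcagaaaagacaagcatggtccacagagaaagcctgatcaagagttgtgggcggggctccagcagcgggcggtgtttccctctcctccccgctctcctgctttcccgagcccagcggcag
Tlr9: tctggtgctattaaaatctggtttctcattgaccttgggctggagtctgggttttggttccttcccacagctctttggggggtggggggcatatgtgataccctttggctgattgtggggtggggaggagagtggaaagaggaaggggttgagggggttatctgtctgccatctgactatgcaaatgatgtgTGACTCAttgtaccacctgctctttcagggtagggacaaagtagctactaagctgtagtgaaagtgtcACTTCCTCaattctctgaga
Tlr13: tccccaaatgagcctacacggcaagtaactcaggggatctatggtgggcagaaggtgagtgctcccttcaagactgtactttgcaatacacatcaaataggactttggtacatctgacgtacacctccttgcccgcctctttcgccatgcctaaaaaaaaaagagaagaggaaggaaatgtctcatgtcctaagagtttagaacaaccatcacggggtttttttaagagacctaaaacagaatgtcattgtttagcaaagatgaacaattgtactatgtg
In the Tlr2 promoter the capitals mark matches to the NF-kB motif, a pair of overlapping matches that start 173 and 172 bases before the start site and a further match 8 bases before it. In the Tlr9 promoter they mark a match to the AP-1 motif (TGANTCA) 58 bases before the start and, 11 bases after it, a match to the PU.1 motif (GAGGAAGT) on the opposite strand. The Tlr5 and Tlr13 promoters held no match to these motifs, to the interferon-stimulated response element or to the CRE motif (TGACGTCA). Promoters that are not printed held matches too. That of Tlr3, a gene that fell in cKO, held an NF-kB match 211 bases before the start. Tlr1 had a PU.1 match 23 bases before it, and Tlr6 had matches to the interferon element 116 and 110 bases before it. Over the windows of 250 bases before and 50 after the start that were searched, the NF-kB motif was found in 8.46% of 32851 promoters, AP-1 in 7.81%, PU.1 in 3.20%, the interferon element in 3.44% and CRE in 1.79%. A match is a match of letters only, and no binding was measured.

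Depth was close to equal, with totals of 18907681 to 19565354 estimated counts per library. The targeted gene Gja1 fell in the cKO group, with mean CPM of 33.6 in WT, 39.7 in APP/PS1 and 26.9 in cKO (log2 change against APP/PS1 -0.56, edgeR adjusted p = 7.95e-09). CPM here means counts scaled to a common library size by TMM, edgeR's correction for differences in library composition. The Y-linked gene Ddx3y was at 204 to 212 CPM in the WT libraries, 224 to 248 CPM in the APP/PS1 libraries and 0 to 0.104 CPM in the cKO libraries, so differences of sex and of genotype cannot be told apart in either comparison with the cKO group. Of 501 X-linked genes tested, 162 were higher and 133 lower in APP/PS1 than in WT, 101 were higher and 168 lower in cKO than in APP/PS1, and 114 were higher and 107 lower in cKO than in WT. These are 32.3% and 26.5%, 20.2% and 33.5%, and 22.8% and 21.4% of the X-linked genes, where 26.9% and 32.0%, 27.3% and 27.7%, and 24.7% and 23.0% of all genes were higher and lower. The summed CPM of 10 microglia markers was 19750 to 20110 in WT, then 23900 to 24270 in APP/PS1 and 20780 to 21050 in cKO. The 10 did not move as one, with 6 higher and 3 lower in APP/PS1 than in WT, 2 higher and 6 lower in cKO than in APP/PS1, and 6 higher and 4 lower in cKO than in WT. The summed CPM of 10 neutrophil markers was 3236 to 3280, 1418 to 1487 and 9055 to 9152 in the same order, with 10 of 10 lower in APP/PS1 than in WT and 10 of 10 higher in cKO than in APP/PS1. The 6 monocyte markers summed to 560 to 581, 208 to 231 and 840 to 853 CPM. The 9 astrocyte markers, genes of a cell type without CD45, summed to 452 to 460, 659 to 678 and 505 to 515 CPM, with 9 of 9 higher in APP/PS1 than in WT and 8 of 9 lower in cKO than in APP/PS1. Their median log2 change from APP/PS1 to cKO was -0.49, beside -0.56 for Gja1. The part of astrocyte RNA in the Gja1 change was not tested. Border macrophage markers (6 genes) summed to 527 to 539, 378 to 393 and 340 to 354 CPM, erythroid markers (6 genes) to 353.5 to 379, 50.6 to 66.1 and 29.1 to 36.7 CPM (from APP/PS1 to cKO 3 of the 6 were higher and 3 lower, with a median log2 change of 0.63), and B cell markers (5 genes) to 30.3 to 32.7, 10.1 to 11.6 and 19.1 to 20.1 CPM. Dendritic cell markers (6 genes) summed to 69.3 to 69.5, 59.2 to 63.0 and 54.3 to 57.9 CPM, and vessel markers (6 genes) to 609.8 to 628.1, 557.5 to 574.7 and 482.8 to 493 CPM. Neuron markers (6 genes) summed to 59.8 to 62.5, 71.2 to 77.7 and 52.5 to 55.5 CPM, and oligodendrocyte markers (6 genes) to 2033 to 2093, 2097 to 2142 and 1983 to 2048 CPM. Markers of T and NK cells (5 genes in the table) summed to 21.8 to 23.3, 32.3 to 33.4 and 24.4 to 26.6 CPM. No gene of these lists was at 0 in every library of a group. The part of these other cells in the results below was not tested. In bulk libraries, fewer cells of a type and less RNA per cell cannot be told apart. The labels do not say that the libraries of a group came from separate animals, so p-values measure only the spread between these libraries.

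Scaled to the gene lengths used for the deposited values, Tlr2 was the most abundant member in every group and Tlr8 the least abundant. In the deposited FPKM values (fragments per kilobase, scaled to library size), Tlr2 averaged 273 in WT, above 98.3% of the tested genes, and 374.8 in APP/PS1 and 396.9 in cKO. Tlr7 followed at 100.1 FPKM in WT, then Tlr13 at 54.2, Tlr9 at 30.1, Tlr1 at 17.5, Tlr6 at 17.2, Tlr3 at 14.5, Tlr4 at 6.73, Tlr5 at 4.80 and Tlr8 at 2.497. This order of mean FPKM was the same in the 3 groups. It rests on the gene lengths behind the deposited FPKM. These imply 7843 bases for Tlr4, whose longest annotated coding transcript has 4077. In mean CPM in WT, Tlr4 (49.9) stood above Tlr1 (47.4) and Tlr6 (45.9). Neighbours in the order did not overlap between libraries, except for Tlr1 and Tlr6 in WT and for Tlr5 and Tlr8 in cKO, where the means were 2.97 and 2.62 FPKM. In all groups the captured cells carried far more RNA for TLR2 and the single-stranded RNA sensor TLR7 than for the lipopolysaccharide receptor TLR4.

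Among the surface receptors, Tlr2 rose in both Alzheimer model groups and differed little between them. Its level was 726.4, 725.7 and 726.3 CPM in WT libraries 1 to 3, 1093, 1103 and 1089 CPM in the APP/PS1 libraries and 1133, 1142 and 1135 CPM in the cKO libraries. The 3 groups did not overlap. Against WT the log2 change was 0.59 in APP/PS1 (SE 0.025, 50.8% higher, edgeR adjusted p = 3.61e-17) and 0.65 in cKO (SE 0.025, 56.5% higher, adjusted p = 9.30e-18). On the log2(TPM + 1) scale these changes were 0.20 and 0.45 (limma adjusted p = 4.37e-06 and 1.92e-08). The difference between cKO and APP/PS1 was 0.054 (95% interval 0.0027 to 0.10, edgeR adjusted p = 0.0695) and did not pass the threshold of 0.05. It passed in 8 of 23 alternatives, among them DESeq2 (0.061, adjusted p = 0.0222), limma-voom (0.054, adjusted p = 0.0378), library totals (0.083, edgeR adjusted p = 0.00537) and log2(TPM + 1) (0.25, limma adjusted p = 1.48e-06). Tlr2 encodes the subunit shared by both lipopeptide receptors.

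**Figure D1:**
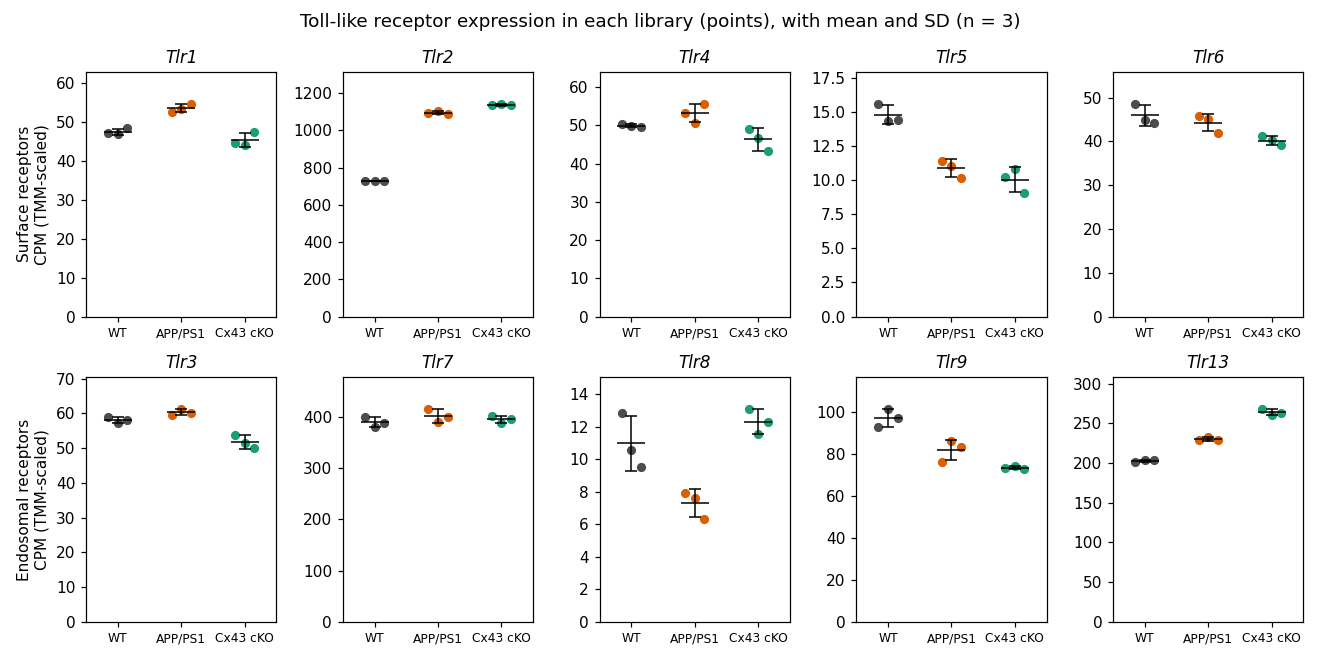
Level of each receptor in each library, in TMM-scaled CPM (y axis, from 0), for WT, APP/PS1 and cKO (x axis), with points for the libraries and lines for the mean and SD (n = 3); the upper row holds the surface and the lower row the endosomal receptors. Tlr2 stands near 726 CPM in WT and at 1089 CPM or more in every other library, Tlr8 dips in APP/PS1, and Tlr13 steps up from WT to APP/PS1 to cKO.

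Tlr1, the partner of TLR2 on triacylated lipopeptides, was highest in APP/PS1. It stood at 47.0, 46.8 and 48.3 CPM in the WT libraries, at 52.6, 53.2 and 54.6 CPM in APP/PS1 and at 44.6, 44.1 and 47.3 CPM in cKO. Every APP/PS1 library lay above every library of the other groups, while the WT and cKO libraries overlapped. It rose by 0.18 on the log2 scale in APP/PS1 against WT (SE 0.045, edgeR adjusted p = 1.45e-03) and fell by 0.24 in cKO against APP/PS1 (SE 0.045, adjusted p = 6.80e-05). cKO and WT differed by -0.063 (95% interval -0.16 to 0.030, edgeR adjusted p = 0.264). The rise against WT is 0.038 and not called when libraries are scaled by their totals alone, and -0.21 on the log2(TPM + 1) scale, where TPM is a length-scaled unit with the same total in every library. On that scale the fall in cKO against APP/PS1 was -0.044 and not called (limma adjusted p = 0.379). The microglia, astrocyte, neuron, oligodendrocyte and T and NK cell marker sums were also highest in APP/PS1. The oligodendrocyte markers did not move as one, with 2 higher and 3 lower in APP/PS1 than in WT (median log2 change -0.063). The part of these cells in the Tlr1 levels was not tested.

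Tlr6, the partner of TLR2 on diacylated lipopeptides, went lower in the cKO group. Its levels were 48.6, 45.0 and 44.2 CPM in WT, 45.8, 45.1 and 42.0 CPM in the APP/PS1 libraries and 41.2, 40.2 and 39.1 CPM in cKO. The WT and APP/PS1 libraries overlapped, with a log2 change of -0.051 (SE 0.050, edgeR adjusted p = 0.392), and the cKO libraries lay below both. The change in APP/PS1 passed with library totals (-0.19, edgeR adjusted p = 0.00184), log2(FPKM + 1) (-0.16, limma adjusted p = 0.0147) and log2(TPM + 1) (-0.41, limma adjusted p = 1.51e-05). Tlr6 fell by 0.19 in cKO against WT (SE 0.050, edgeR adjusted p = 2.49e-03) and by 0.14 against APP/PS1 (SE 0.051, adjusted p = 0.022). The latter call was lost without APP/PS1 library 1 (adjusted p = 0.0936), APP/PS1 library 2 (0.0636) or cKO library 3 (0.0911). It was also lost with DESeq2 (-0.13, adjusted p = 0.12), library totals (-0.11, edgeR adjusted p = 0.0706) and log2(FPKM + 1) (-0.098, limma adjusted p = 0.12), and the sign turned on the log2(TPM + 1) scale (0.058).

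Tlr4, the lipopolysaccharide receptor, had its lowest levels in the cKO group. The 3 libraries stood at 50.33, 49.95 and 49.46 CPM in WT, at 53.3, 50.8 and 55.7 CPM in APP/PS1 and at 49.1, 46.8 and 43.2 CPM in cKO. No library of one group overlapped with those of another. Tlr4 fell by 0.20 in cKO against APP/PS1 (SE 0.050, edgeR adjusted p = 1.36e-03). That change was -0.038 with offsets for transcript length and GC content, which ends the call (edgeR adjusted p = 0.508), and -0.0052 on the log2(TPM + 1) scale (limma adjusted p = 0.943). The change of 0.093 in APP/PS1 against WT (95% interval -0.0084 to 0.19) did not pass without the replicate block (edgeR adjusted p = 0.109) and did with it (adjusted p = 0.0427). It also passed without APP/PS1 library 2, at 0.13 (edgeR adjusted p = 0.0485). cKO and WT differed by -0.11 (SE 0.050, edgeR adjusted p = 0.0786), which passed without cKO library 1 at -0.15 (adjusted p = 0.0248) and with library totals at -0.21 (adjusted p = 0.000715).

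Tlr5, the flagellin receptor, fell in both model groups. It was at 15.6, 14.3 and 14.4 CPM in WT, at 11.42, 11.03 and 10.13 CPM in APP/PS1 and at 10.2, 10.8 and 9.02 CPM in cKO. The WT libraries lay above the other 6, which overlapped with each other. Against WT the log2 change was -0.44 in APP/PS1 (SE 0.083, edgeR adjusted p = 4.69e-05) and -0.56 in cKO (SE 0.083, adjusted p = 3.19e-06). Between cKO and APP/PS1 it was -0.12 (95% interval -0.30 to 0.068, edgeR adjusted p = 0.283).

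Among the endosomal receptors, Tlr13 rose from WT to APP/PS1 and again from APP/PS1 to cKO. Tlr13 encodes the mouse receptor for a conserved stretch of bacterial ribosomal RNA. Its levels were 201.7, 203.3 and 204.1 CPM in WT, 229.2, 233.1 and 228.8 CPM in the APP/PS1 libraries and 268.1, 260.7 and 263.7 CPM in cKO, with no overlap. The log2 change was 0.18 in APP/PS1 against WT (SE 0.029, edgeR adjusted p = 6.56e-06), 0.20 in cKO against APP/PS1 (SE 0.029, adjusted p = 1.99e-06) and 0.38 in cKO against WT (SE 0.029, 30.1% higher, adjusted p = 2.28e-11). The first of these was 0.044 and not called with library totals (adjusted p = 0.188, edgeR) and -0.21 on the log2(TPM + 1) scale.

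Tlr8 dipped in APP/PS1 and was back near the WT level in cKO. TLR8 senses degraded single-stranded RNA, and its gene was among the less deeply covered members, with 117 to 257 counts per library. Its levels were 12.8, 10.6 and 9.50 CPM in WT, 7.92, 7.64 and 6.30 CPM in the APP/PS1 libraries and 13.1, 11.6 and 12.3 CPM in cKO. The APP/PS1 libraries were the lowest, and the WT and cKO libraries overlapped. Tlr8 was 33.5% lower in APP/PS1 than in WT (log2 change -0.59, SE 0.11, edgeR adjusted p = 5.71e-05) and 68.9% higher in cKO than in APP/PS1 (0.76, SE 0.11, adjusted p = 1.94e-06). cKO and WT differed by 0.17 (95% interval -0.039 to 0.37, edgeR adjusted p = 0.178), a difference that passed at 0.29 without WT library 1 (adjusted p = 0.0203). The neutrophil and monocyte marker sums were likewise lowest in APP/PS1 and highest in cKO, and their part in the Tlr8 levels was not tested.

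Tlr9, the CpG DNA receptor, was lower in both model groups, and lower in cKO than in APP/PS1. It stood at 93.2, 101.6 and 97.1 CPM in WT, at 76.5, 86.1 and 83.5 CPM in APP/PS1 and at 73.3, 74.5 and 73.0 CPM in cKO, and the groups did not overlap. The log2 change was -0.25 in APP/PS1 against WT (SE 0.043, edgeR adjusted p = 2.20e-05), -0.16 in cKO against APP/PS1 (SE 0.045, adjusted p = 4.23e-03) and -0.40 in cKO against WT (SE 0.044, 24.4% lower, adjusted p = 1.64e-08). The Tlr9 transcript has the highest GC content of the family, 56.2% against 39.4 to 49.3% in the other 9. With offsets for GC content and length the change in APP/PS1 against WT was -0.028 (edgeR adjusted p = 0.524), and on the log2(TPM + 1) scale the change in cKO against APP/PS1 was 0.039 (limma adjusted p = 0.501). The border macrophage, dendritic cell, erythroid and vessel marker sums were also highest in WT and lowest in cKO. The dendritic cell markers did not move as one, with 2 higher and 2 lower in APP/PS1 than in WT. From APP/PS1 to cKO 2 of them were higher and 1 lower, and 3 erythroid markers were higher and 3 lower. The part of these cells in the levels of Tlr5 and Tlr9 was not tested.

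Tlr3, the double-stranded RNA receptor, fell in the cKO group. Its levels were 59.0, 57.1 and 58.0 CPM in WT, 59.6, 61.2 and 60.0 CPM in the APP/PS1 libraries and 53.8, 51.6 and 49.9 CPM in cKO. The cKO libraries lay below the other 6, and every APP/PS1 library lay above every WT library by a small margin. Tlr3 fell by 0.22 in cKO against APP/PS1 (SE 0.043, edgeR adjusted p = 1.12e-04) and by 0.17 against WT (SE 0.043, adjusted p = 0.0025), while APP/PS1 and WT differed by 0.055 (SE 0.042, adjusted p = 0.275). The latter passed with length offsets (0.16, edgeR adjusted p = 0.00187) and, with the opposite sign, on the log2(TPM + 1) scale (-0.33, limma adjusted p = 1.67e-05). With offsets for GC content and length the change in cKO against APP/PS1 was -0.058 and not called (edgeR adjusted p = 0.251), and on the log2(TPM + 1) scale it was -0.022 (limma adjusted p = 0.667). The call against WT was lost with DESeq2 (-0.14, adjusted p = 0.0559). The mean sums of neuron and oligodendrocyte markers were, like Tlr3 and Tlr4, highest in APP/PS1 and lowest in cKO. Of the oligodendrocyte markers, 2 were higher and 3 lower in APP/PS1 than in WT, and 0 were higher and 4 lower in cKO than in APP/PS1. The part of these cells in the levels of Tlr3 and Tlr4 was not tested.

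Tlr7, the second most abundant receptor and a sensor of guanosine-rich single-stranded RNA, varied least. It ranged over 399.7, 381.0 and 388.5 CPM in WT, 415.5, 389.8 and 400.0 CPM in the APP/PS1 libraries and 402.2, 388.8 and 395.1 CPM in cKO, and the 3 groups overlapped. The log2 changes were 0.044 in APP/PS1 against WT (95% interval -0.018 to 0.11, edgeR adjusted p = 0.221), -0.023 in cKO against APP/PS1 (-0.086 to 0.039, adjusted p = 0.543) and 0.021 in cKO against WT (-0.042 to 0.083, adjusted p = 0.606). The first passed with the replicate block (edgeR adjusted p = 0.0237). The sign of each Tlr7 change turned under some ways of scaling the libraries, for example to -0.094 in APP/PS1 against WT with library totals, so no direction is given. Its X-linked neighbour is Tlr8, whose levels dipped in APP/PS1.

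**Figure D2:**
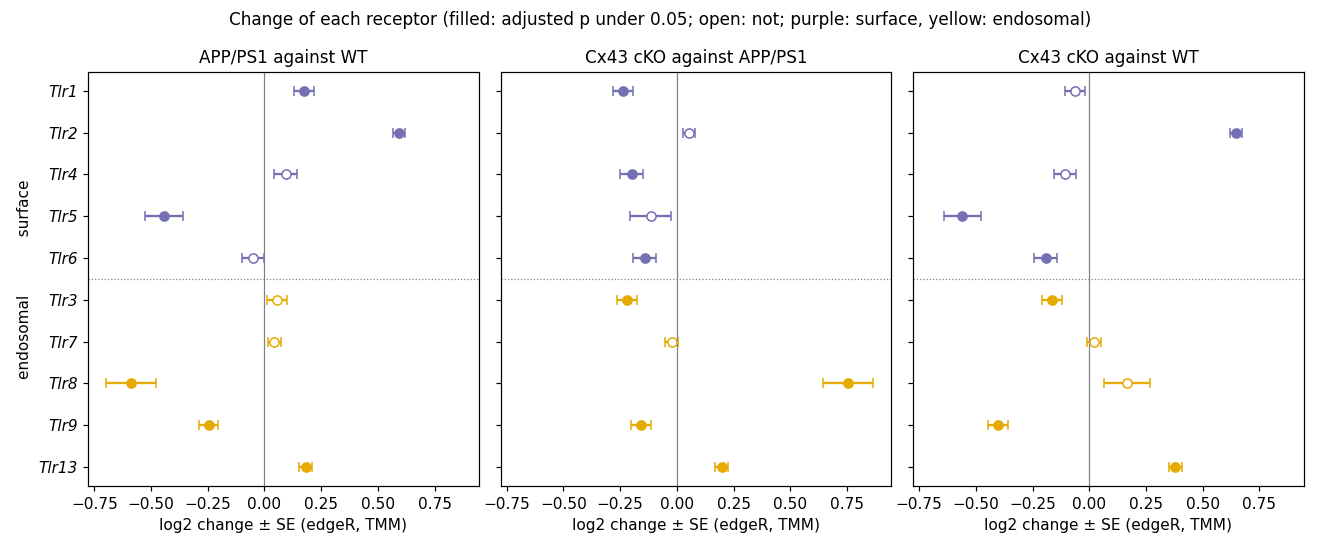
Log2 change ± SE of each receptor (x axis, edgeR with TMM) in the 3 comparisons (panels), with 3 libraries per group; filled points have an adjusted p under 0.05, purple marks surface and yellow marks endosomal receptors. Tlr2 and Tlr13 lie to the right and Tlr5 and Tlr9 to the left of 0 in both comparisons with WT, and Tlr8 lies at -0.59 in APP/PS1 against WT and at 0.76 in cKO against APP/PS1.

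Counted over the family, 6 of 10 members passed the test in APP/PS1 against WT, 3 higher (Tlr1, Tlr2, Tlr13) and 3 lower (Tlr5, Tlr8, Tlr9), where 59.0% of all tested genes were called (26.9% higher, 32.0% lower). With the replicate block 8 passed, Tlr4 and Tlr7 also being higher, and on the log2(TPM + 1) scale all 10, 1 higher (Tlr2) and 9 lower. From APP/PS1 to cKO 7 of 10 passed, 2 higher (Tlr8, Tlr13) and 5 lower (Tlr1, Tlr3, Tlr4, Tlr6, Tlr9), against 55.0% of all genes (27.3% higher, 27.7% lower). On the log2(TPM + 1) scale 4 passed, all higher (Tlr2, Tlr7, Tlr8, Tlr13), and none of the 5 lower calls was kept. Between cKO and WT 6 of 10 passed, 2 higher (Tlr2, Tlr13) and 4 lower (Tlr3, Tlr5, Tlr6, Tlr9), against 47.7% of all genes (24.7% higher, 23.0% lower), and 9 on the log2(TPM + 1) scale, 2 higher (Tlr2, Tlr13) and 7 lower. Over 10 members these shares are near the background of all genes, and nothing particular to the family is read from them. Groups did not overlap for 8, 8 and 7 members, against 63.5%, 59.7% and 54.6% of all genes. The APP/PS1 libraries enter the first and second comparisons, and a high or low value in them moves the 2 in opposite directions.

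With TMM, in no comparison did all members of the surface or of the endosomal class pass the test in the same direction. In APP/PS1 against WT 2 surface members rose and 1 fell, with a median log2 change of 0.093, and 1 endosomal member rose and 2 fell, with a median of 0.044; with the replicate block 3 surface members rose and 1 fell, and 2 endosomal members rose and 2 fell. From APP/PS1 to cKO no surface member rose and 3 fell (median -0.14), and 2 endosomal members rose and 2 fell (median -0.023). Between WT and cKO 1 surface member rose and 2 fell (median -0.11), and 1 endosomal member rose and 2 fell (median 0.021). The class counts depended on the scaling. On the log2(TPM + 1) scale 1 surface member rose and 4 fell, and no endosomal member rose and 5 fell, in APP/PS1 against WT. From APP/PS1 to cKO 1 surface and 3 endosomal members rose there and none fell, and between WT and cKO 1 surface member rose and 4 fell and 1 endosomal member rose and 3 fell. With TMM the medians over all tested genes were -0.036, -0.011 and -0.0086. The surface median minus the endosomal median was 0.049, -0.12 and -0.13 in the 3 comparisons. The SD of this difference over the libraries of a group, pooled over groups, was 0.085 in log2 CPM, which is larger than the first of these values. Computed for each library of the first-named group against the mean of the other group, the difference ran from 0.023 to 0.12, from -0.16 to -0.091 and from -0.23 to -0.10. These ranges hold the spread of the first-named group only. Without Tlr2 the surface medians were 0.021, -0.17 and -0.15.

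Within each library, Tlr2 took up more of the family's RNA in both model groups. Its share of the summed FPKM of the 10 members was 52.3 to 52.7% in WT, then 61.7 to 62.1% in APP/PS1 and 62.5 to 63.3% in cKO. The endosomal share was 38.5 to 38.7% in WT, then 30.8 to 31.2% in APP/PS1 and 30.6 to 31.3% in cKO, so that it was lower in every model library than in every WT library and overlapped between the model groups. Such shares and ratios do not depend on how libraries are scaled to each other, although they can depend on corrections that differ between genes. The 4 surface members other than Tlr2 summed to 46.3 FPKM in WT, 43.0 in APP/PS1 and 38.6 in cKO, and the endosomal members to 201.3, 188.1 and 195.1 FPKM.

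**Figure D3:**
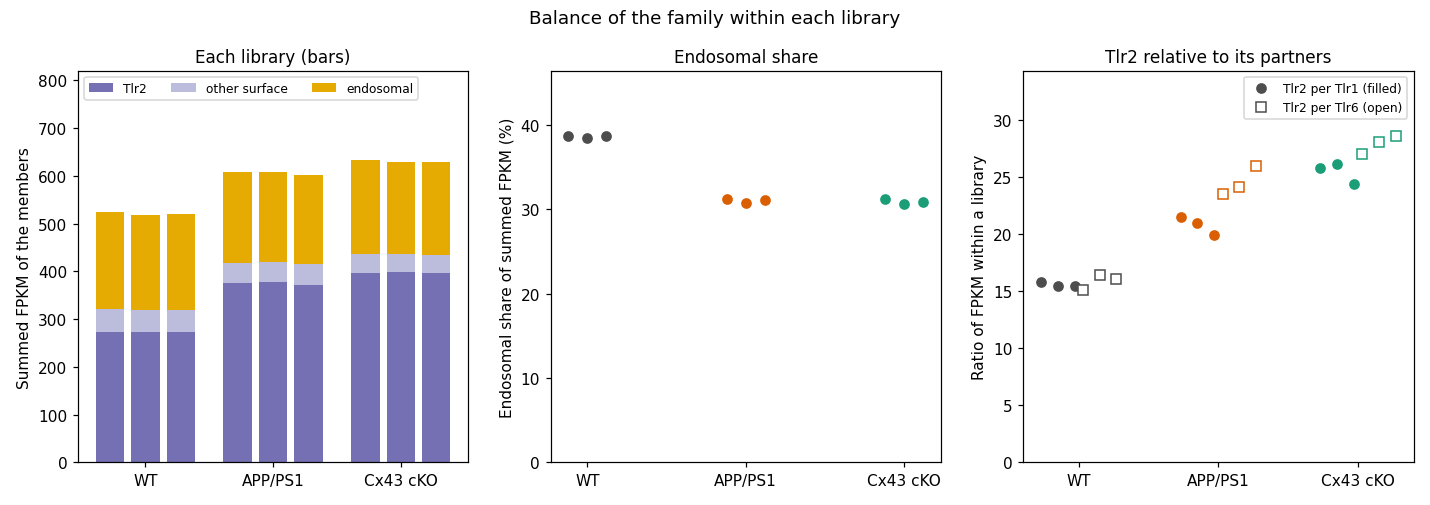
Left, FPKM of Tlr2, of the other surface receptors and of the endosomal receptors stacked for each library (bars); middle, the endosomal share of that sum in percent; right, FPKM of Tlr2 divided by that of Tlr1 (filled) or Tlr6 (open) in each library. The endosomal share is near 39% in WT and near 31% in both other groups, and both Tlr2 ratios are highest in cKO.

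TLR2 works as a pair with TLR1 or TLR6, and Tlr2 RNA was higher relative to both partners in the model groups. Tlr2 per Tlr1 was 15.5 to 15.8 in WT, then 19.9 to 21.5 in APP/PS1 and 24.4 to 26.2 in cKO, as ratios of FPKM within a library. Tlr2 per Tlr6 was 15.1 to 16.4, 23.5 to 26.0 and 27.0 to 28.6. Neither ratio overlapped between groups, although the split of reads between Tlr1 and Tlr6 is uncertain as described above. Tlr7 per Tlr8 was 35.4 to 45.5 in WT, then 59.4 to 72.5 in APP/PS1 and 33.6 to 38.9 in cKO, which follows Tlr8. Tlr13 per Tlr9 did not overlap between groups either, at 1.73 to 1.87 in WT, then 2.34 to 2.59 in APP/PS1 and 3.02 to 3.16 in cKO. This ratio does depend on correction for GC content, since the log2 change of Tlr13 per Tlr9 in APP/PS1 against WT was 0.43 without and 0.14 with GC and length offsets, and 0.35 and 0.60 in cKO against APP/PS1. The other 3 ratios moved by at most 0.07 with these offsets.

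Several of the smaller changes turned or lost their call under other ways of scaling the libraries. Among the changes that passed, those of Tlr2, Tlr5 and Tlr9 in cKO against WT, Tlr2, Tlr5 and Tlr8 in APP/PS1 against WT, Tlr8 and Tlr13 in cKO against APP/PS1, and Tlr6 and Tlr13 in cKO against WT kept their direction and passed in all 23 alternatives. The median change of all genes in APP/PS1 against WT was -0.036 with TMM, -0.17 with library totals and -0.35 on the log2(TPM + 1) scale, so values on those scales are read relative to that shift. Among the genes called, 45.7% were higher with TMM, 29.5% with library totals and 14.7% on the TPM scale. The shares in cKO against APP/PS1 were 49.6%, 54.8% and 75.3%, and in cKO against WT 51.9%, 30.4% and 19.8%. The medians of all genes were -0.011, 0.018 and 0.14 in cKO against APP/PS1, and -0.0086, -0.12 and -0.17 in cKO against WT, in the same order of scales.

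**Figure D4:**
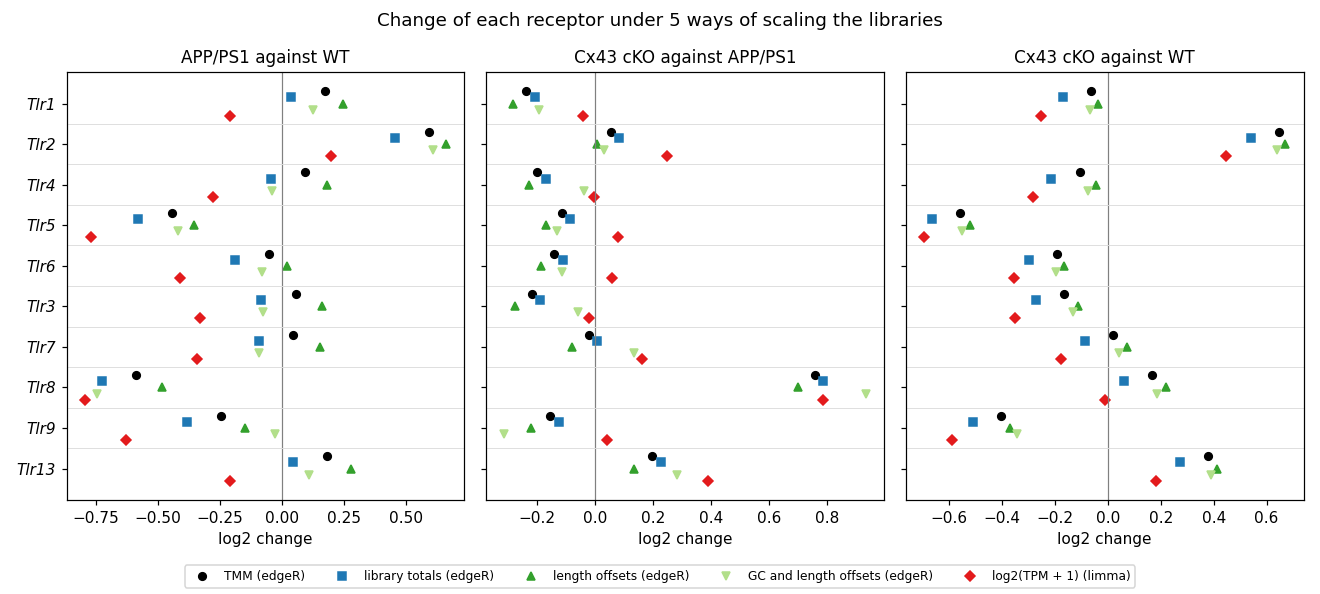
Log2 change of each receptor (x axis) in the 3 comparisons (panels) under 5 ways of scaling, with 1 symbol for each way. Tlr2 in both comparisons with WT and Tlr8 in APP/PS1 against WT and in cKO against APP/PS1 stay on one side of 0, while Tlr7 in each panel, Tlr1, Tlr3, Tlr4, Tlr6 and Tlr13 in APP/PS1 against WT, Tlr5, Tlr6 and Tlr9 in cKO against APP/PS1, and Tlr8 in cKO against WT lie on both sides.

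The co-receptors and chaperones of the family went both ways. Of 17 matched of 18 listed, 7 rose and 4 fell in APP/PS1 against WT (median log2 change 0.084), 8 rose and 6 fell in cKO against APP/PS1 (0.060), and 10 rose and 4 fell in cKO against WT (0.21). Of all tested genes 59.0%, 55.0% and 47.7% were called in these comparisons, beside 11, 14 and 14 of the 17. The list counts here and below are from the fit without the replicate block. With it, Slc15a3 also passed as higher in APP/PS1 against WT (edgeR adjusted p = 0.0101), and Cnpy3 and Ap3b1 as lower (0.00991 and 0.0386). On the log2(TPM + 1) scale 6 were higher and 9 lower in APP/PS1 against WT, 10 higher and 5 lower in cKO against APP/PS1, and 6 higher and 6 lower in cKO against WT. Cd14, which hands lipopolysaccharide to TLR4 and lipopeptides to TLR2, averaged 933 (WT), 1288 (APP/PS1) and 1434 CPM (cKO), and rose by 0.47 and 0.62 on the log2 scale against WT (SE 0.025, edgeR adjusted p = 6.35e-15 and 2.10e-17). Ly96, which encodes MD-2, the lipopolysaccharide-binding partner of TLR4, averaged 5.01, 12.0 and 4.91 CPM. It rose by 1.26 in APP/PS1 (SE 0.11, edgeR adjusted p = 1.69e-10) and fell by 1.28 in cKO against APP/PS1 (SE 0.11, adjusted p = 1.90e-10), with no call between cKO and WT (-0.026, adjusted p = 0.885).

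Cd180 and Ly86, which encode the RP105 and MD-1 proteins of a complex related to that of TLR4, rose against WT in both model groups at the RNA level and went opposite ways between them. Cd180 averaged 134 (WT), 219.5 (APP/PS1) and 276 CPM (cKO) (log2 changes against WT 0.71 and 1.04, SE 0.037, edgeR adjusted p = 4.45e-15 and 1.49e-18). Ly86 averaged 246 (WT), 1083 (APP/PS1) and 661 CPM (cKO) (log2 changes against WT 2.14 and 1.42, SE 0.035, edgeR adjusted p = 1.63e-24 and 7.76e-21). From APP/PS1 to cKO Cd180 rose by 0.33 (SE 0.036, edgeR adjusted p = 1.25e-08) and Ly86 fell by 0.71 (SE 0.034, adjusted p = 3.04e-15). Lbp, the serum protein that delivers lipopolysaccharide to CD14, fell by 0.58 in APP/PS1 against WT (edgeR adjusted p = 6.33e-06) and rose by 1.34 in cKO against APP/PS1 (adjusted p = 3.80e-13).

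For the endosomal receptors, Unc93b1, the chaperone that carries them out of the endoplasmic reticulum, fell in both model groups. It averaged 751 (WT), 603 (APP/PS1) and 618 CPM (cKO), with log2 changes against WT of -0.32 and -0.28 (SE 0.028, edgeR adjusted p = 1.86e-10 and 2.76e-09). Its change between the model groups was 0.034 (edgeR adjusted p = 0.306). Ctss, a protease that cleaves these receptors in the endosome, rose by 0.98 in APP/PS1 against WT (edgeR adjusted p = 7.09e-21) and fell by 0.78 in cKO against APP/PS1 (adjusted p = 1.40e-18). Slc15a4, an endolysosomal transporter needed for signalling by TLR7 and TLR9, fell by 0.26 and 0.45 against WT (edgeR adjusted p = 1.24e-06 and 2.32e-10).

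The adaptors and kinases below the receptors were mostly lower in APP/PS1 than in the other groups. Of 22 genes, 18 fell and none rose in APP/PS1 against WT (median -0.22), and 15 rose and none fell in cKO against APP/PS1 (median 0.19), comparisons that share the APP/PS1 libraries. Of all genes 32.0% were lower in the former and 27.3% higher in the latter. In cKO against WT 6 rose and 7 fell (median -0.049), where 24.7% and 23.0% of all genes were higher and lower; on the log2(TPM + 1) scale 1 was higher and 16 were lower. The 18 became 11 with length offsets and 22 on the log2(TPM + 1) scale, and the 15 ranged from 12 to 22 over the alternatives. Myd88, the adaptor of all members but Tlr3, fell by 0.29 in APP/PS1 (edgeR adjusted p = 4.59e-08) and by 0.26 in cKO (adjusted p = 4.28e-07) against WT. Ticam1, which encodes TRIF, fell by 0.37 in APP/PS1 against WT (edgeR adjusted p = 4.75e-07) and rose by 0.23 in cKO against APP/PS1 (adjusted p = 4.03e-04).

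Ikbke and Tirap showed the widest swings of this list. Ikbke, a kinase that activates IRF3 and IRF7, averaged 6.45 (WT), 4.49 (APP/PS1) and 15.3 CPM (cKO), a log2 change of 1.76 between the model groups (SE 0.096, edgeR adjusted p = 1.36e-14). Tirap, the bridging adaptor of TLR2 and TLR4, averaged 21.6, 15.5 and 26.2 CPM in the same order (0.76 between the model groups, SE 0.060, edgeR adjusted p = 3.30e-11). The sums of the 10 neutrophil and of the 6 monocyte markers had the same order of groups, and their part in these changes was not tested.

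**Figure D5:**
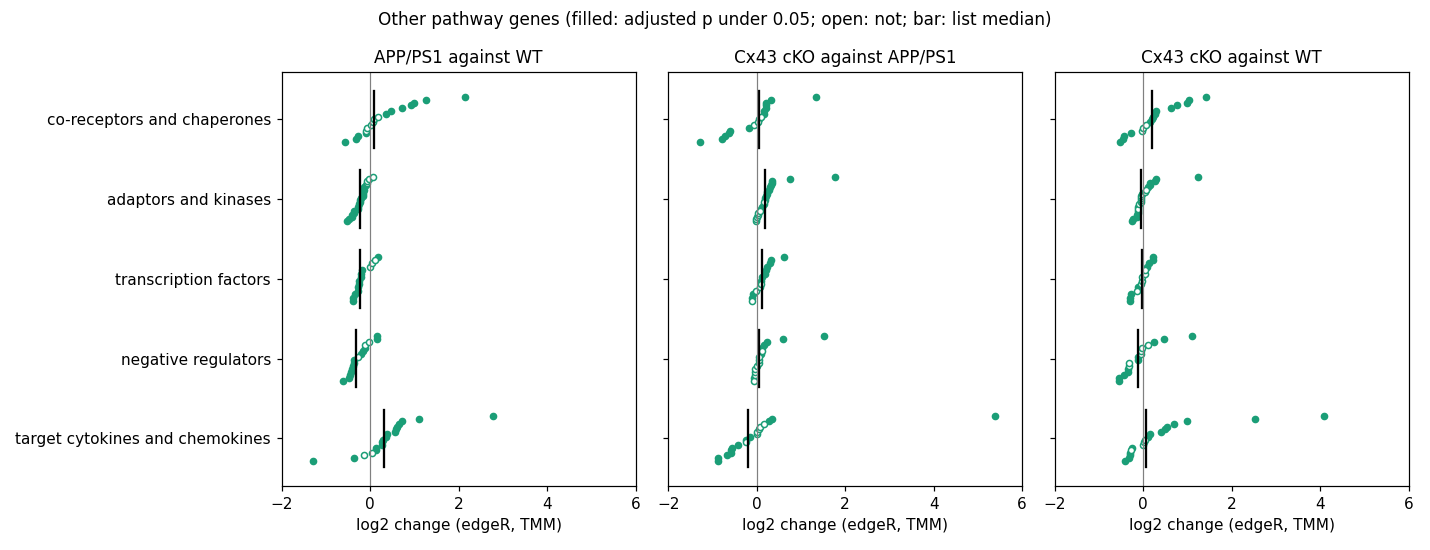
Log2 change (x axis, edgeR with TMM) of each tested gene of 5 lists of other pathway genes (rows) in the 3 comparisons (panels); filled points have an adjusted p under 0.05 and the bar is the list median. Adaptors and kinases lie mostly left of 0 in APP/PS1 against WT and right of 0 in cKO against APP/PS1, and Nos2 stands at 5.38 among the targets in cKO against APP/PS1.

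Of 14 transcription factors, 1 rose and 10 fell in APP/PS1 against WT, 8 rose and 2 fell in cKO against APP/PS1, and 4 rose and 4 fell in cKO against WT, with medians of -0.22, 0.11 and -0.021. Calls in either direction covered 59.0%, 55.0% and 47.7% of all genes in the same order, and the lower calls of the first covered 32.0%. The 10 were 5 with GC and length offsets and 14 on the log2(TPM + 1) scale, where 13 rose and none fell from APP/PS1 to cKO and none rose and 11 fell in cKO against WT. Irf7, the interferon regulatory factor downstream of TLR7 and TLR9, fell by 0.39 in APP/PS1 against WT (SE 0.059, edgeR adjusted p = 2.57e-06) and rose by 0.62 in cKO against APP/PS1 (SE 0.058, adjusted p = 1.05e-09). Nfkb2, an NF-kB subunit, rose by 0.30 in that comparison (edgeR adjusted p = 2.31e-08), and Fos, a component of AP-1, fell by 0.38 in APP/PS1 against WT (adjusted p = 3.33e-13).

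Negative regulators were also mostly lower in APP/PS1 than in WT, with 2 of 16 higher and 11 lower (median -0.32), a count of lower genes that ranged from 7 to 15 over the alternatives and stands beside 32.0% of all genes. Socs3, which dampens cytokine receptor signalling, fell by 0.61 (SE 0.036, edgeR adjusted p = 1.98e-11), and Dusp1, a phosphatase of MAP kinases, fell by 0.46 (adjusted p = 3.68e-15). From APP/PS1 to cKO 6 rose and 1 fell (median 0.058), where 27.3% and 27.7% of all genes were higher and lower; on the log2(TPM + 1) scale 12 were higher. Irak3, an inhibitory kinase-like protein that blocks IRAK signalling and is expressed in monocytes and macrophages, averaged 13.8 (WT), 10.3 (APP/PS1) and 29.8 CPM (cKO), a rise of 1.53 over APP/PS1 (SE 0.068, edgeR adjusted p = 1.75e-16). Against WT, 3 rose and 7 fell in cKO (median -0.12), beside 24.7% and 23.0% of all genes; 11 were lower on the log2(TPM + 1) scale.

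Of 18 cytokines, chemokines and other targets of the pathway, 14 rose and 2 fell in APP/PS1 against WT (median 0.32), 3 rose and 9 fell in cKO against APP/PS1 (median -0.20), and 9 rose and 5 fell in cKO against WT (median 0.068). Of all genes 26.9% were higher in the first, 27.7% lower in the second and 24.7% higher in the third. The 14 fell to 7 with length offsets, where 9 were lower, and to 5 on the log2(TPM + 1) scale, where 8 were lower. In cKO against APP/PS1 8 were higher and 8 lower with length offsets, and in cKO against WT 7 were higher and 8 lower on the log2(TPM + 1) scale, so these counts of targets show no direction that holds under every scaling. Il1b, an NF-kB target, averaged 932.5 (WT), 2007 (APP/PS1) and 1351 CPM (cKO) (log2 change 1.11 in APP/PS1 against WT, SE 0.026, edgeR adjusted p = 1.02e-22). Il23a, a subunit of interleukin-23, averaged 0.954, 6.60 and 5.56 CPM in the same order (2.78 in APP/PS1 against WT, SE 0.17, edgeR adjusted p = 1.50e-13). Nos2, the inducible nitric oxide synthase, averaged 1.61 (WT), 0.649 (APP/PS1) and 27.3 CPM (cKO), a log2 change of 5.38 between the model groups (SE 0.16, edgeR adjusted p = 1.23e-19). Tnf, a classic target of all Toll-like receptors, fell by 0.36 in APP/PS1 against WT (edgeR adjusted p = 3.60e-11).

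The sizes of these pathway changes also depended on the scaling, here compared over 6 other ways. In APP/PS1 against WT the change of Cd14 ran from 0.073 to 0.48, that of Ly96 from 0.57 to 1.28, that of Cd180 from 0.32 to 0.73, that of Ctss from 0.46 to 1.00, that of Il1b from 0.58 to 1.12 and that of Il23a from 1.72 to 2.81. For genes that fell in that comparison, the change of Unc93b1 ran from -0.71 to -0.20, that of Myd88 from -0.68 to -0.26, that of Ticam1 from -0.75 to -0.17, that of Irf7 from -0.77 to -0.25 and that of Tnf from -0.75 to -0.34. The change of Slc15a4 ran from -0.63 to -0.15, that of Socs3 from -1.0 to -0.41, that of Dusp1 from -0.85 to -0.40 and that of Fos from -0.77 to -0.35 (all in APP/PS1 against WT). From APP/PS1 to cKO the change of Ly96 ran from -1.28 to -0.68, that of Ctss from -0.77 to -0.35, that of Ly86 from -0.72 to -0.21, that of Cd180 from 0.31 to 0.52, that of Ticam1 from 0.089 to 0.41, that of Nfkb2 from 0.15 to 0.52, that of Ikbke from 1.28 to 1.79, that of Irak3 from 1.33 to 1.59 and that of Nos2 from 2.70 to 5.41. Between WT and cKO the change of Unc93b1 ran from -0.48 to -0.24 and that of Myd88 from -0.45 to -0.23. None of these ranges crosses 0.

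In their pattern over the 9 libraries, the members were compared with 8995 tested genes whose mean was 10 CPM or more. Likeness was the root mean square difference between log2 CPM profiles centred on their own means, so a small value is a close match. Tlr2 was nearest to Mpeg1 (0.029), a pore-forming protein of macrophages, and to Gon4l (0.033), while the Tlr2 profile itself varied around its mean by 0.29. Tlr13 was nearest to Slc23a2 (0.018) and Rassf3 (0.021), against 0.16 around its own mean, and Tlr9 to Ubqln2 (0.031) and Slc15a4 (0.037), against 0.17. Tlr8 had no such close match among these genes, the nearest being Mindy1 and Eps8 (both 0.12) against 0.35 around its own mean. The nearest gene of Tlr5 was Dusp2 (0.063, against 0.26), that of Tlr6 Tifa (0.033, against 0.095) and that of Tlr1 Ndufs1 (0.025, against 0.11). That of Tlr4 was Tbpl1 (0.037, against 0.098), that of Tlr3 Ttyh1 (0.030, against 0.098) and that of Tlr7 Nfat5 (0.017, against 0.035), so that Tlr7 and Tlr8 were the members whose own variation was least and most.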

How the data were processed

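Per the labels' protocols, poly-A libraries were read from 1 end for 50 bases on the DNBSEQ platform. Per the file headers, 4 values are deposited for each gene and library: an estimated count, FPKM, TPM and a normalised count. The authors' estimated counts carry decimals and are not scaled between libraries. The deposited FPKM are per kilobase and library size, whereas deposited TPM sum to the same total in each library. Normalised counts were deposited as a signal: each is the rounded-up estimated count multiplied by a factor of its library, and these factors matched inverse DESeq2 size factors. HISAT, Bowtie2, DESeq2 and GRCm38.p6 are named in the submitters' processing notes, without roles. All per-sample columns were mapped by name, and the authors' group means were not used.

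The members and gene lists were chosen with earlier results of these data known. Libraries were grouped by their labelled genotype. Estimated counts were rounded to whole numbers, where the design had assumed plain counts, and tested with the edgeR 4.0.16 quasi-likelihood test (R 4.3.3; TMM, filterByExpr, robust, all 9 libraries, a mean per group), with Benjamini-Hochberg adjustment over 14696 genes and a threshold of 0.05. The step was tested on simulated data. Named genes are the members and, of each list and comparison, up to 3 called genes in each direction with the largest change and at least 1 CPM; not all of these are printed, and Cd14 was named after its values were seen. The text also names Myd88, Ticam1, Unc93b1 and other listed genes in comparisons where the rule selects them only elsewhere.

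Replicate numbers come from the labels. Deviations of same-numbered libraries over 10813 genes correlated by 0.15 to 0.28 between APP/PS1 and WT. They correlated by 0.093 to 0.24 between cKO and APP/PS1 and by 0.084 to 0.23 between cKO and WT, so the ranges overlap. The labels give only a number, and pairing is uncertain in every comparison. The main fit has no replicate block, and for APP/PS1 against WT member calls with the block are given beside it. Alternatives were DESeq2 1.42.0, limma 3.58.1 (voom, trend, and log2 of FPKM or TPM plus 1 or of FPKM plus 0.1), library totals, no filter, a minimum of 10 counts in all libraries, fits of the compared groups alone, the replicate number as a block, offsets by transcript length, and each library left out in turn. Offsets by GC content and length (GENCODE mouse release M21) were added after seeing the data.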

Additional observations from a re-analysis of the deposited data

How the results depend on the processing

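Over 23 alternatives, 10 of the 19 changes of members that passed the test kept their direction and passed in each, and of the 11 that did not pass, only that of Tlr5 in cKO against APP/PS1 stayed short of the threshold in each. The number of members called ranged over the alternatives from 6 to 10 in APP/PS1 against WT, from 4 to 8 in cKO against APP/PS1 and from 5 to 9 in cKO against WT.

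With log2(TPM + 1) and limma 10 members were called in APP/PS1 against WT, 1 of them higher, and 4 in cKO against APP/PS1, all 4 higher. On that scale the signs turned in APP/PS1 against WT for Tlr1 (-0.21), Tlr4 (-0.28), Tlr3 (-0.33), Tlr7 (-0.34) and Tlr13 (-0.21), and in cKO against APP/PS1 for Tlr6 (0.058), Tlr7 (0.16) and Tlr9 (0.039). The median change of all genes on that scale was -0.35 in the former comparison and 0.14 in the latter. The values named for APP/PS1 against WT lie above that median, so they turned only relative to no change. In cKO against APP/PS1, Tlr6 and Tlr9 lie below the median and Tlr7 lies above it. Tlr7 also turned in APP/PS1 against WT with library totals (-0.094), log2(FPKM + 1) (-0.088), log2(FPKM + 0.1) (-0.088) and GC and length offsets with or without the replicate block (-0.094). In cKO against APP/PS1 it was 0.13 with GC and length offsets, with or without the block. In cKO against WT it was -0.087 with library totals, -0.089 with log2(FPKM + 1), -0.090 with log2(FPKM + 0.1) and -0.18 with log2(TPM + 1). The surface median minus the endosomal median in cKO against APP/PS1 was -0.25 with GC and length offsets, with or without the block. The cause of these shifts was not tested. Sign changes of values that passed in neither fit were not counted as turned.

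With the replicate block 8, 8 and 7 members were called in the 3 comparisons, in place of 6, 7 and 6. In cKO against APP/PS1 it adds Tlr2 (adjusted p = 2.40e-09) and in cKO against WT Tlr4 (adjusted p = 0.0256). The pairs of all 3 comparisons share only a number. Leaving out each library in turn gave 6 to 7 members called in each comparison. The difference of medians then ran from 0.012 to 0.082, from -0.16 to -0.083 and from -0.16 to -0.11. Depth limits Tlr8 and Tlr5 most, with SE of 0.083 to 0.11 on the log2 scale against 0.025 for Tlr2. Counts without molecular identifiers include PCR copies.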

Other observations

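The file also holds Tlr11 and Tlr12, endosomal receptors of profilin that were not among the 10 members. Tlr12 averaged 25.9 (WT), 33.9 (APP/PS1) and 39.8 CPM (cKO), with log2 changes of 0.39, 0.23 and 0.62 in APP/PS1 against WT, cKO against APP/PS1 and cKO against WT (edgeR adjusted p = 3.52e-07, 2.64e-04 and 7.43e-11). The first of these was -0.0025 on the log2(TPM + 1) scale. Like Tlr13, Tlr12 thus stood lowest in WT and highest in cKO, and it was named here after its values were seen. Tlr11 was at or below 0.83 CPM in every library and was not called in any comparison.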
